A study of Mus musculus with 6 samples.

Results

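The genes described here are the 256 expressed Zfp genes of mouse embryonic stem cells (mESCs), out of 55401 genes in the files. A member had a protein-coding annotation and a symbol made of Zfp and a number in GENCODE M21, and was selected on a mean of at least 2 TPM over all 6 libraries. TPM is the level of a transcript per unit of its length, as a share of all transcripts in the library. Of the 391 protein-coding genes with such a symbol, 124 lay under that minimum, 9 lay inside 2 intervals that the rule leaves out (chromosome 8 beyond 90 Mb, and chromosome 6 from 113.6 to 131.4 Mb of GRCm38), and 2 were left out by name. Most symbols of this form stand for C2H2 zinc finger proteins, in which repeated zinc-binding fingers read DNA or, in some members, RNA. Many are KRAB zinc finger proteins, whose KRAB domain recruits the corepressor TRIM28 and with it the H3K9 methyltransferase SETDB1, and mESCs use this route to silence endogenous retroviruses and to keep imprinted loci methylated. KRAB zinc finger genes multiplied by tandem duplication, so that they sit in clusters of close relatives.

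Poly(A) RNA was sequenced from 46C mESCs, a line grown here without feeders in 2i, LIF and serum, with 2 libraries in each of 3 groups. The paper describes 46C cells that carried the biotin ligase BirA-V5 from a lentivirus. They then received the biotin tag alone, biotin-Rbbp4 or biotin-Rbbp7 from a second lentivirus under puromycin selection. Rbbp4 OE and Rbbp7 OE are titled as the biotin-Rbbp4 and biotin-Rbbp7 overexpression cells. The control is titled only as 46C control, and that title does not say whether it carried BirA-V5 or the tag. RBBP4 and RBBP7 are histone-binding WD40 proteins shared by the NuRD, PRC2, SIN3 and CAF-1 complexes, and the comparison asked how an excess of either changes expression. Rbbp4 was listed at 146 and 147 TPM in the control, 270.0 and 271 TPM with Rbbp4 OE and 144 and 143 TPM with Rbbp7 OE. Rbbp7 was listed at 239 and 237 TPM in the control, 208 and 217 TPM with Rbbp4 OE and 725 and 748 TPM with Rbbp7 OE, so each gene stood above the control in its own line and not in the other. The libraries listed 19011 to 19691 genes above 0, and the mESC markers fixed for the check were abundant (Pou5f1 at 1455 TPM or more in every library). Of 8 such markers 1 was called higher (Pou5f1) and 2 lower (Nanog and Tfcp2l1) in Rbbp4 OE. Over all genes tested 3.29% were higher and 8.07% lower. The 8 markers had a median log2 fold change of -0.25 in Rbbp4 OE, beside -0.08 for all genes tested. Of 6 fibroblast markers Postn was at 0 throughout and none passed 10.8 TPM, with sums of 4.48 and 5.59 TPM in the control, 9.09 and 11.7 TPM with Rbbp4 OE and 15.7 and 8.75 TPM with Rbbp7 OE. Thy1 alone of these was called higher in Rbbp4 OE, at 4.13 and 5.02 TPM in the control and 8.87 and 10.8 TPM with Rbbp4 OE (adjusted p = 0.0192). The 7 markers of 2-cell-like cells summed to 2.57 and 1.91 TPM in the control and 0.42 to 0.91 TPM in the 4 libraries of the lines, and 8 germ layer markers to 3.24 and 4.51 TPM against 5.54 to 6.78 TPM. The part of these markers in the results was not tested. Nothing says that the 2 libraries of a group came from separate cultures, so p-values measure only the spread between these samples. The read depth behind the TPM values is unknown.

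All 256 members were detected in all 6 libraries. Their mean levels had a median of 6.66 TPM, 98 members lay under 5 TPM and 45 above 20 TPM, and together they took 0.347% to 0.393% of each library. The members were chosen by their mean TPM, so these levels are a description. Just inside the minimum stood Zfp790 at 2.00 TPM, Zfp420 at 2.03 TPM and Zfp768 at 2.05 TPM, and just outside it Zfp729a at 1.95 TPM, Zfp819 at 1.94 TPM and Zfp607a at 1.93 TPM. In 242 members every group mean was at least 2 TPM, and in 14 at least 1 group mean lay below it.

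The most abundant member by far was Zfp57, the KRAB protein that keeps imprinting control regions methylated. It stood at 334 and 369 TPM in the control, 381 and 385 TPM with Rbbp4 OE and 451 and 401 TPM with Rbbp7 OE. Zfp207 (a spindle assembly and splicing factor) followed with a mean of 140.5 TPM, then Zfp428 (109 TPM), Zfp706 (96.6 TPM) and Zfp296 (90.2 TPM), a factor enriched in pluripotent cells that aids reprogramming. The 10 most abundant members held 30.7% of the summed TPM of all members.

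A chain of protein-coding Zfp genes with gaps of at most 500 kb that held at least 3 members was taken as a genomic cluster. By this definition 141 members fell into 22 clusters and 115 were dispersed. Chromosome 7 alone held 66 members. Clusters are named here by chromosome and, where a chromosome has several, by a letter in the order of position. The largest was on chromosome 4 (the chr4 cluster, 17 members, chr4:145510759-147809788 of GRCm38), followed by chr7F and chr17A with 13 members each and chr17B with 11.

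The chr4 cluster holds 4 of the 8 members that rose in Rbbp4 OE, and its start sites show how closely related its members are. RefSeq (GRCm38.p6) gives a window of 250 bases before to 50 after the start for 210 of the 256 members. In 9 chr4 members that window lies within 250 bases of the annotated gene start. Pairs of these 9 windows were 79.8% to 98.8% identical over their aligned bases (median 91.0%, 36 pairs). The longest run of bases common to all 9 was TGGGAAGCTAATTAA, which starts 154 to 106 bases upstream of the transcription start. On either strand this run occurred in the windows of 12 of 27025 genes (0.0444%), all inside the chr4 cluster. These were 10 members, counting Zfp981 with another start, and the neighbouring Gm13212 and Rex2. The run was taken from 9 of these windows, so those 9 matches were fixed in advance. The 6 stretches of 120 bases printed here are read 5′ to 3′ on the gene's strand, with the common run in capitals, and they show 4 members that were higher in Rbbp4 OE followed by 2 that did not pass the test.
Zfp980 (chr4:145670526-145670645, plus strand): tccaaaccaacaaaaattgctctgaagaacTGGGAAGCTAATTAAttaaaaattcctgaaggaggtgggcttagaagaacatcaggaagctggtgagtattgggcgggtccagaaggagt
Zfp600 (chr4:146156662-146156781, plus strand): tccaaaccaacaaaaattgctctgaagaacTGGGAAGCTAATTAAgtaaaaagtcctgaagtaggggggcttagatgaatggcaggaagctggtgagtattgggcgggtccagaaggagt
Zfp985 (chr4:147553111-147553230, plus strand): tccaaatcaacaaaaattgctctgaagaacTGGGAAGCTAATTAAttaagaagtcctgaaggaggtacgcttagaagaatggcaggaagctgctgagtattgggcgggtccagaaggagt
Zfp534 (chr4:147702648-147702767, minus strand): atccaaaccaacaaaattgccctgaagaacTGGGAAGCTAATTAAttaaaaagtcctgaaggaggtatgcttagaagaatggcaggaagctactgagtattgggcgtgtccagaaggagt
Zfp979 (chr4:147642560-147642679, minus strand): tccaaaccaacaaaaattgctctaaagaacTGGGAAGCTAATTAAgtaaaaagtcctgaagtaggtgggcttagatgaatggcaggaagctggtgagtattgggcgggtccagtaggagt
Zfp984 (chr4:147809853-147809972, minus strand): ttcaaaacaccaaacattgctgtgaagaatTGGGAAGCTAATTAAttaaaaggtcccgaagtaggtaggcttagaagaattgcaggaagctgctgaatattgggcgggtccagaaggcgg
All 9 windows also held CCAAT, the letters of the CCAAT box, on one strand or the other (in the printed stretches as attgg), against 41.1% of all 27025 genes and 56.2% of the 210 members with a window. Members that rose and members that did not pass the test could have nearly the same window. The Zfp600 and Zfp979 windows were 98.3% identical. A match of letters is a description of the sequence and not a binding site.

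In Rbbp4 OE against control, 8 members rose and 8 fell, and 4 of the 8 that rose lie in the chr4 cluster. Those 4 are Zfp985 (chr4:147553277-147585198), Zfp980 (chr4:145670685-145704441), Zfp600 (chr4:146156824-146198755) and Zfp534 (chr4:147673502-147702553). The others that rose are Zfp219, a partner of OCT4 and SALL4 in mESCs, Zfp428, Zfp951 and Zfp553. The 8 that fell include Zfp317, Zfp266 (a KRAB protein whose loss eases reprogramming), Zfp346 (which binds double-stranded RNA) and Zfp706 (linked to the exit from self-renewal). All changes were under 2-fold on the log2(TPM + 1) scale used here. In bulk RNA, fewer cells that express a gene and less RNA per cell cannot be told apart.

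The test was limma with a mean-variance trend on log2(TPM + 1) over the 14156 genes with a mean of at least 0.5 TPM, so that fold changes of low genes are understated. The call was made at an adjusted p under 0.05 (Benjamini-Hochberg). By this rule 3.29% of all genes tested were higher and 8.07% lower in Rbbp4 OE (11.4% in either direction), so the 8 higher members sat at about the background and the 8 lower members below it. The called share depended on level. At 20 TPM or more, 9 of 45 members were called (20%) against 19.3% of 4694 other protein-coding genes. Of these members 6 were higher (13.3% against 5.56%) and 3 lower (6.67% against 13.7%). From 5 to 20 TPM 7 of 113 were called (6.19%) against 9.92%, and from 2 to 5 TPM 0 of 98 against 4.75%. In all 16 called members every group mean was at least 2 TPM.

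Under the stricter thresholds of the study, an adjusted p under 0.01 and a fold over 2, limma called 0 members against 0.516% of all genes tested. The study used these thresholds with DESeq2 on counts, so this result is not on the same measure as the study's calls. At an unadjusted p under 0.05 there were 27 members higher and 34 lower, 23.8% of the members against a background of 29.6%. The libraries of the groups did not overlap, with both Rbbp4 OE libraries higher, in 58 members (22.7%, background 20.8%) and with both lower in 72 (28.1%, background 37.1%). The median log2 fold change of the members was -0.07, beside -0.08 for all genes tested.

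Zfp985 showed the largest increase among the called members, with 16.4 and 18.0 TPM in the control, 29.9 and 32.2 TPM with Rbbp4 OE and 22.03 and 26.8 TPM with Rbbp7 OE. Both Rbbp4 OE libraries lay above all others, and both Rbbp7 OE libraries lay between them and the control. The log2 fold change was 0.82 ± 0.12 (SE, adjusted p = 0.0158, limma) for Rbbp4 OE and 0.48 ± 0.12 (adjusted p = 0.173) for Rbbp7 OE. Zfp980 stood at 31.9 and 38.9 TPM in the control, 54.4 and 57.2 TPM with Rbbp4 OE and 46.5 and 45.5 TPM with Rbbp7 OE, a log2 increase of 0.65 ± 0.10 with Rbbp4 OE (adjusted p = 0.0197). Zfp600 stood at 24.4 and 30.8 TPM, 43.2 and 41.1 TPM, and 33.2 and 33.4 TPM in the same order of groups, and rose by 0.60 ± 0.12 with Rbbp4 OE (adjusted p = 0.0306). Zfp534, outside the naming rule and chosen after its values were seen, rose by 0.49 ± 0.10 (adjusted p = 0.0303) from 13.4 and 14.2 TPM to 19.2 and 20.5 TPM. In these 4 genes the Rbbp7 OE libraries also lay above both control libraries, without passing the test.

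Outside the chr4 cluster, Zfp219 had 49.6 and 51.2 TPM in the control, 73.6 and 76.9 TPM with Rbbp4 OE and 65.9 and 72.2 TPM with Rbbp7 OE. Its log2 fold change was 0.57 ± 0.07 with Rbbp4 OE (adjusted p = 0.0119) and 0.44 ± 0.07 with Rbbp7 OE (adjusted p = 0.0806), the lowest adjusted p of any member in that comparison. Both lines stood above the control without overlap. Zfp428, in the chr7D cluster, had 95.5 and 87.2 TPM in the control, 134 and 135 TPM with Rbbp4 OE and 98.2 and 103 TPM with Rbbp7 OE. Its increase of 0.55 ± 0.07 with Rbbp4 OE (adjusted p = 0.0103) had the lowest adjusted p of all members. Zfp553 (chr7H) rose by 0.42 ± 0.09 (adjusted p = 0.0336) from 40.1 and 46.6 TPM to 58.4 TPM in both Rbbp4 OE libraries, and stood at 57.1 and 56.4 TPM with Rbbp7 OE. Zfp951 rose by 0.51 ± 0.12 (adjusted p = 0.0474) from 7.39 and 7.48 TPM to 10.4 and 11.8 TPM.

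Among the members that fell, Zfp266 in the chr9A cluster had the largest change, with 9.74 and 7.14 TPM in the control, 4.29 and 3.20 TPM with Rbbp4 OE and 5.17 and 3.81 TPM with Rbbp7 OE. Its log2 fold change was -0.99 ± 0.22 (adjusted p = 0.0427) in Rbbp4 OE and -0.78 ± 0.22 (adjusted p = 0.2) in Rbbp7 OE, and the libraries of both lines lay below those of the control. Zfp317 on the same chromosome, a dispersed member, fell by 0.93 ± 0.12 (adjusted p = 0.0119) from 12.7 and 14.2 TPM to 6.28 and 6.84 TPM, with 9.31 and 9.98 TPM with Rbbp7 OE. Its groups were fully separated, with Rbbp7 OE in between. Zfp346 fell by 0.73 ± 0.14 (adjusted p = 0.0301) from 15.4 and 19.0 TPM to 9.15 and 10.7 TPM, with 13.4 and 14.6 TPM with Rbbp7 OE. Zfp664 fell by 0.68 ± 0.11 (adjusted p = 0.0182) from 18.2 and 21.1 TPM to 11.8 TPM in both Rbbp4 OE libraries, with 15.8 and 15.5 TPM with Rbbp7 OE.

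Zfp395, a DNA-binding factor linked to hypoxia, fell by 0.65 ± 0.15 (adjusted p = 0.0473), and its Rbbp7 OE libraries (8.32 and 7.44 TPM) overlapped the control (8.07 and 9.24 TPM) while Rbbp4 OE stood at 4.64 and 5.72 TPM. Zfp106, an RNA-binding protein needed in motor neurons, fell by 0.60 ± 0.14 (adjusted p = 0.047) from 55.6 and 73.6 TPM to 39.1 and 44.6 TPM, with 61.0 and 60.6 TPM with Rbbp7 OE. In both genes only the Rbbp4 OE libraries stood apart, but the direct difference between the lines did not pass the test (adjusted p = 0.166 and 0.151). Zfp706 fell by 0.32 ± 0.07 (adjusted p = 0.0399) from 108 and 105 TPM to 89.9 and 80.7 TPM. Zfp961, chosen in the same way as Zfp534, fell by 0.50 ± 0.07 (adjusted p = 0.0169) from 52.6 and 55.3 TPM to 36.9 and 38.9 TPM.

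**Figure D1:**
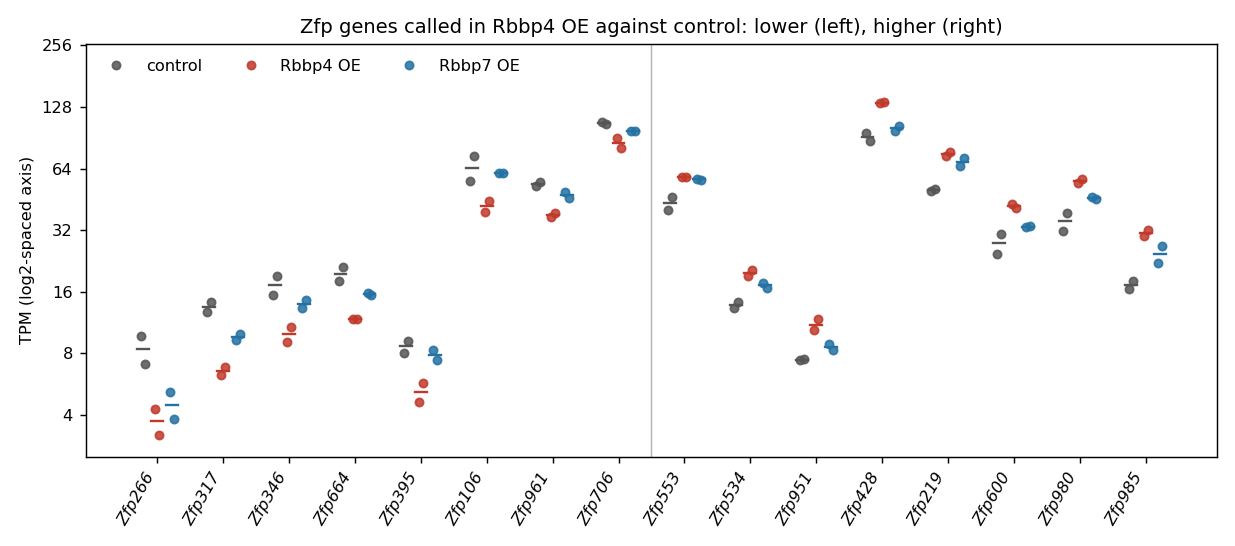
TPM (vertical axis, log2-spaced) of the 16 members called in Rbbp4 OE against control, in each of the 6 libraries. Points are libraries, short bars are means of 2 libraries, and colours give the group. In the 8 genes on the left both Rbbp4 OE points lie below both control points and in the 8 on the right above them, without overlap.

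These calls rest on few libraries. Leaving out any library but control 1 also lowered the calls over all genes tested, so the drop was not particular to the members. Without either Rbbp4 OE library 0 members were called. Without control 2 there were 7, all higher, of which 4 were among the 16, and without control 1 there were 16, of which 11 were among them. Without Rbbp7 OE 1 or 2 there were 4 or 3, all among the 16. Scaling each library by median-of-ratios gave 17 members higher and 4 lower and quantile normalization 18 and 4, in place of 8 and 8. The median of the members moved from -0.07 to 0.02 and 0.005, and that of all genes tested from -0.08 to 0.01 and -0.02. Calls over all genes tested were 1428 and 1498 of 14156, beside 1609 in the main fit.

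The 2 control libraries differed among the members. Control 1 lay below control 2 in 207 of 256 members, by a median of -0.20 on the log2 scale, against -0.09 over all genes tested. The summed TPM of all members was 3467 and 3925 in the control, 3803 and 3816 with Rbbp4 OE and 3929 and 3883 with Rbbp7 OE, so 3 of the 4 sums of the lines lay between those of the control libraries and Rbbp7 OE 1 just above both. The median absolute difference between replicates was 0.23 in the control, 0.13 with Rbbp4 OE and 0.13 with Rbbp7 OE on the log2 scale.

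In the chr4 cluster, 15 of 17 members had a positive log2 fold change in Rbbp4 OE, 4 rose and 0 fell, where 40.7% of all genes tested were positive and 3.29% were called higher. The median was 0.30, beside -0.08 for the other 239 members (-0.08 for all genes tested), and it was the highest of the 22 clusters, ahead of chr7A at 0.23 and chr7B at 0.16. In 14 of the 17 both Rbbp4 OE libraries lay above both control libraries, where 20.8% of all genes tested did so. The summed TPM of the cluster was 322 and 394 in the control, 478 and 472 with Rbbp4 OE and 409.7 and 408 with Rbbp7 OE, a ratio to the control mean of 1.32 for Rbbp4 OE and 1.14 for Rbbp7 OE. The cluster held 9.30% and 10.05% of the summed TPM of all members in the control, 12.6% and 12.4% with Rbbp4 OE and 10.4% and 10.5% with Rbbp7 OE. Every line library lay above both control libraries in sum.

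Members that did not pass the test varied. Apart from Zfp993, those given here were chosen after their values were seen. Zfp990, the most abundant, had 57.5 and 65.2 TPM in the control, 75.9 and 74.7 TPM with Rbbp4 OE and 70.7 and 70.6 TPM with Rbbp7 OE, a log2 difference of 0.29 ± 0.08 that missed the threshold (adjusted p = 0.0618). Zfp979 stood at 37.5 and 46.7 TPM, 39.8 and 38.8 TPM, and 42.0 and 41.6 TPM in that order, and its groups overlapped. Zfp991 stood at 7.30 and 9.97 TPM, 6.67 and 6.41 TPM, and 5.98 and 5.64 TPM, the only member of the cluster with both lines below both control libraries. Zfp988 stood at 34.6 and 40.1 TPM, 47.9 and 43.6 TPM, and 34.2 and 32.9 TPM, so that Rbbp4 OE lay above and Rbbp7 OE below the control (adjusted p = 0.116 and 0.534). Zfp993 had the largest fold change of the cluster, 0.92 ± 0.33 (adjusted p = 0.129), at only 2.33 and 1.3 TPM in the control and 3.44 and 5.14 TPM with Rbbp4 OE.

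**Figure D2:**
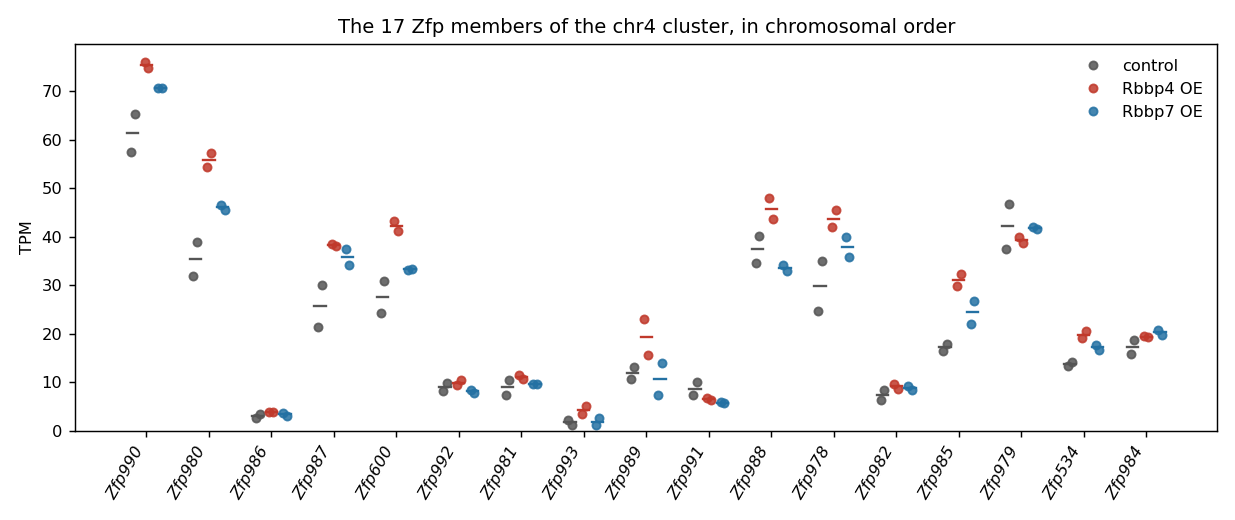
TPM (vertical axis, linear from 0) of the 17 members of the chr4 cluster in chromosomal order, with points for libraries and short bars for means of 2 libraries. Rbbp4 OE points lie above both control points in 14 of 17 genes (20.8% of all genes tested), and Zfp979, Zfp991 and Zfp992 are the exceptions.

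Other genes of the interval also had mostly positive values. Between the outer members of the cluster 26 further genes were tested (3 protein-coding, the others mostly pseudogenes). Of these, 19 had a positive log2 fold change in Rbbp4 OE with a median of 0.49, and 4 rose and 0 fell. Over all genes tested 40.7% were positive and 3.29% were called higher. The 4 that rose are Rex2, a zinc finger gene of the same family, Gm13212, Gm13034 and Gm16211, which complete the count. Rex2 had 32.4 and 38.3 TPM in the control, 52.9 and 48.8 TPM with Rbbp4 OE and 38.6 and 41.8 TPM with Rbbp7 OE (log2 fold change 0.52, adjusted p = 0.033). Some of the 26 lay near 0 TPM. Gm13246 counted as positive with 0 TPM in both control libraries and 3.01 and 0 TPM with Rbbp4 OE. Stretches shared with other genes were not measured for the 26. The 107 protein-coding genes tested within 5 Mb on either side had a median of -0.01. Members and further genes together summed to 490.3 and 579 TPM in the control, 720 and 714 TPM with Rbbp4 OE and 630.0 and 624 TPM with Rbbp7 OE.

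**Figure D3:**
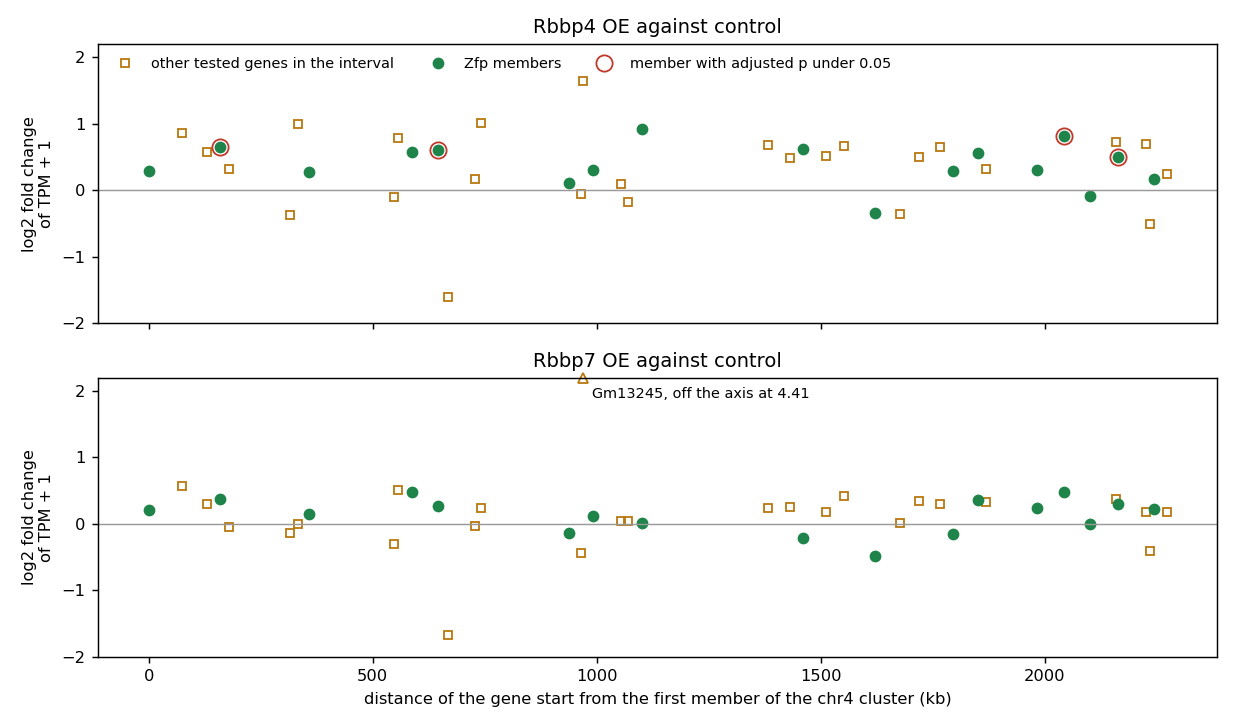
Log2 fold change of TPM + 1 (vertical axis) against the distance of each gene's start from the first member of the chr4 cluster in kb (horizontal axis), for the 17 members (filled circles, ringed where the adjusted p is under 0.05) and 26 further tested genes (open squares), with Rbbp4 OE above and Rbbp7 OE below. In Rbbp4 OE 15 of 17 members and 19 of 26 further genes lie above 0 along the whole interval, against 40.7% of all genes tested. The pseudogene Gm13245 is off the axis at 4.41 with Rbbp7 OE.

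Close copies share reads, and at least 98% identical stretches of other genes covered over 50% of the transcript in 5 of its 17 members (Zfp987, Zfp991, Zfp993, Zfp986 and Zfp992), whose own TPM values are uncertain. In the 4 that rose, the shared part was 15.6% for Zfp980, 12.7% for Zfp600, 20.3% for Zfp534 and 0% for Zfp985. Control 1 lay below control 2 in 16 of the 17 members, and the median log2 fold change in Rbbp4 OE was 0.20 without control 1 and 0.53 without control 2. 

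The other clusters held 1 called member or none. All 5 members of chr9A had negative log2 fold changes in both lines. Of all 14156 genes tested, 8352 were negative in Rbbp4 OE and 7172 in Rbbp7 OE. In chr9A, Zfp266 fell in Rbbp4 OE. The cluster's summed TPM was 24.1 and 21.2 in the control, 16.9 and 14.6 with Rbbp4 OE and 18.6 and 14.5 with Rbbp7 OE, so both lines lay below the control. Zfp560 of that cluster stood at 2.99 and 3.12 TPM in the control, 1.85 and 1.96 TPM with Rbbp4 OE and 1.76 and 0.87 TPM with Rbbp7 OE, without passing the test (adjusted p = 0.231 and 0.197). In chr8, all 4 members, and in chr6, 5 of 6 members, had negative values in Rbbp4 OE, with medians of -0.19 and -0.23. The median of all genes tested was -0.08, and most of them were negative as well. Zfp775 in chr6 stood at 3.93 and 4.23 TPM in the control and 2.53 and 2.81 TPM with Rbbp4 OE (adjusted p = 0.0999).

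In chr7A, 4 of 5 members had positive values in Rbbp4 OE, where 40.7% of all genes tested were positive. The summed TPM of chr7A was 40.4 and 37.5 in the control, 47.1 and 48.1 with Rbbp4 OE and 45.7 and 46.1 with Rbbp7 OE. In chr7D, where Zfp428 rose, the median of the 7 members was 0.07, and 18 of 23 further tested genes inside it were positive, with a median of 0.17. The large clusters on chromosome 17 and chr7F had medians of -0.12 (chr17A), -0.11 (chr17B) and -0.13 (chr7F), with 0 of their members called. Zfp874b in chr13 had the largest decrease of all members, 4.75 and 5.34 TPM in the control against 2.72 and 1.18 TPM with Rbbp4 OE, and missed the threshold (log2 fold change -1.08 ± 0.28, adjusted p = 0.0577). Zfp931 in chr2 stood at 4.40 and 4.41 TPM in the control and 2.71 and 2.14 TPM with Rbbp4 OE (adjusted p = 0.0528). The dispersed members had a median of -0.10, with 2 higher (1.74%) and 7 lower (6.09%), both below the backgrounds of 3.29% and 8.07%.

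**Figure D4:**
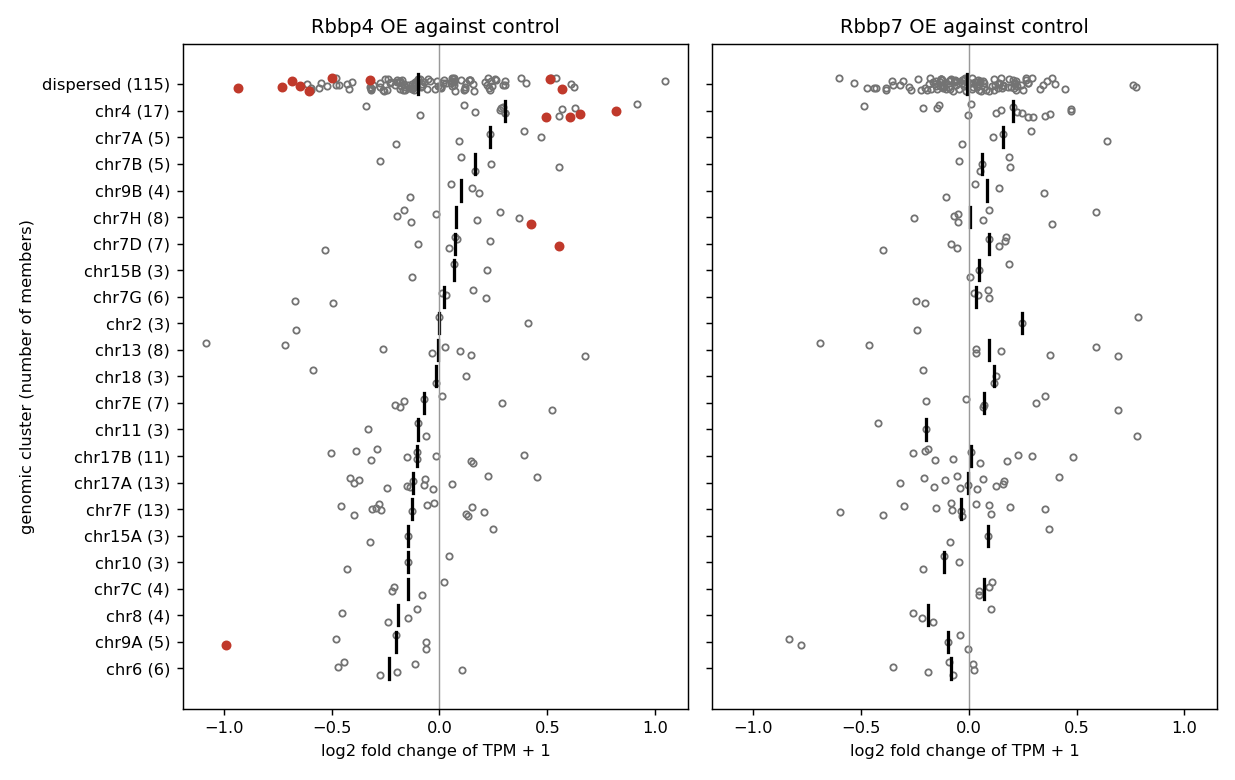
Log2 fold change of TPM + 1 (horizontal axis) of the 256 members by genomic cluster (rows, with the number of members), in Rbbp4 OE and Rbbp7 OE against control. Each circle is a member, filled circles passed an adjusted p under 0.05, and black bars are cluster medians, which run from -0.23 in chr6 to 0.30 in chr4 for Rbbp4 OE.

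In Rbbp7 OE against control, 0 members passed an adjusted p under 0.05, with 0.487% of all genes tested called, and 0 passed the stricter thresholds (background 0.0353%). At an unadjusted p under 0.05 limma gave 23 members higher and 10 lower, 12.9% of the members against a background of 15.4%. Both Rbbp7 OE libraries lay above both control libraries in 56 members and below in 51, 21.9% and 19.9% against backgrounds of 21.2% and 23.4%. The median log2 fold change was 0.02, and -0.004 over all genes tested.

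The 3 largest decreases were in Zfp560 (log2 difference -0.84 ± 0.23, adjusted p = 0.197), Zfp266 (-0.78 ± 0.22, adjusted p = 0.2) and Zfp874b (-0.69 ± 0.28, adjusted p = 0.313), none past the test. Of the 3 largest increases, Zfp971 had 1.15 and 3.04 TPM in the control and 4.12 and 4.03 TPM with Rbbp7 OE (log2 difference 0.78 ± 0.31, adjusted p = 0.305). Zfp354a, a KRAB gene first described in kidney, had 1.99 and 2.98 TPM in the control, 2.10 and 2.51 TPM with Rbbp4 OE and 5.92 and 4.07 TPM with Rbbp7 OE (0.78 ± 0.23, adjusted p = 0.215). Zfp362 had 1.42 and 1.72 TPM in the control against 3.60 and 3.20 TPM with Rbbp7 OE and 3.28 and 2.65 TPM with Rbbp4 OE. In these 3 genes the Rbbp7 OE libraries lay above the control without passing the test.

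In the chr4 cluster the median in Rbbp7 OE was 0.20, and 12 of 17 members were positive, where 48.8% of all genes tested were positive. In 9 members both Rbbp7 OE libraries lay above both control libraries and in 2 below them. Over all genes tested these shares were 21.2% and 23.4%. In the 9 members the Rbbp4 OE libraries lay above both control libraries as well. Both comparisons use the same control libraries, so their values are given side by side and not as separate evidence. The 26 further genes of the interval had a median of 0.18 with Rbbp7 OE.

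In the direct comparison of Rbbp4 OE with Rbbp7 OE, which uses no control library, 0 members passed an adjusted p under 0.05 (background 0.304%) or the stricter thresholds (background 0.0494%). At an unadjusted p under 0.05 limma gave 11 members higher in Rbbp4 OE and 16 lower, 10.5% against a background of 19.0%. The median was -0.08 over the members and -0.08 over all genes tested. In the chr4 cluster the median was 0.19 with 15 of 17 members positive, where 36.5% of all genes tested were positive. Zfp428 came closest to the threshold (log2 difference 0.42 ± 0.07, adjusted p = 0.0932). A call in Rbbp4 OE and none in Rbbp7 OE is therefore not shown to differ between the lines for any member.

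Of the 19 members on the lists of known roles, 3 were called in Rbbp4 OE (15.8%, background 11.4%). Of the imprint guardians, Zfp57 differed from the control by 0.12 ± 0.07 on the log2 scale in Rbbp4 OE (adjusted p = 0.325) and 0.28 ± 0.07 with Rbbp7 OE (adjusted p = 0.193), and Zfp445 had 14.8 and 26.9 TPM in the control around 16.4 and 19.6 TPM with Rbbp4 OE and 22.7 and 22.1 TPM with Rbbp7 OE. Of the retroelement repressors, Zfp809, which targets the primer binding site of murine leukaemia viruses, stood at 24.0 and 30.3 TPM in the control, 31.1 and 29.2 TPM with Rbbp4 OE and 27.6 and 32.2 TPM with Rbbp7 OE. Zfp932, which acts on ERVK elements, stood at 10.3 and 11.1 TPM, 9.76 and 7.99 TPM, and 11.3 and 8.34 TPM. None of these 4 passed the test in either line, and Zfp708 and Zfp819, of the same list, lay under the 2 TPM minimum.

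Of 8 pluripotency and reprogramming members, 1 rose (Zfp219), 1 fell (Zfp706) and 6 did not pass in Rbbp4 OE, beside 3.29% higher and 8.07% lower over all genes tested. Zfp296 stood at 83.1 and 79.4 TPM in the control, 95.6 and 95.3 TPM with Rbbp4 OE and 92.6 and 95.5 TPM with Rbbp7 OE, and missed the threshold (adjusted p = 0.0569 and 0.198). Zfp322a, needed for self-renewal, stood at 7.86 and 9.60 TPM, 4.83 and 6.43 TPM, and 5.87 and 6.52 TPM (adjusted p = 0.0908 and 0.318). The 2 lines lay on the same side of the control in both genes. Zfp462 and Zfp207 gave log2 fold changes of -0.47 and 0.23 with Rbbp4 OE, and Zfp217 and Zfp143 gave 0.12 and -0.17. Zfp597, whose human counterpart is imprinted, stood at 3.52 and 3.26 TPM in the control, 1.88 and 2.12 TPM with Rbbp4 OE and 1.95 and 2.13 TPM with Rbbp7 OE (adjusted p = 0.0836 and 0.222).

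Of 6 members that work on RNA or ribosomes, 1 fell in Rbbp4 OE (Zfp346, above) and 5 did not pass, beside 8.07% lower over all genes tested. Zfp36 (tristetraprolin, which drives decay of AU-rich mRNAs) stood at 2.35 and 3.68 TPM in the control, 4.68 TPM in both Rbbp4 OE libraries and 5.64 and 5.17 TPM with Rbbp7 OE (adjusted p = 0.14 and 0.2). The ribosome biogenesis factors Zfp593 and Zfp622 had log2 fold changes of 0.03 and -0.22 with Rbbp4 OE, and the splicing-linked Zfp830 and Zfp326 had 0.10 and -0.12. Zfp593 shares 72.0% of its transcript with other genes, so its value is uncertain.

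The silencing machinery that KRAB proteins call on gave 0 higher and 2 lower of 19 genes in Rbbp4 OE (10.5% lower, background 8.07%), and 0 calls among the 19 in Rbbp7 OE. The corepressor Trim28 stood at 1626 and 1538 TPM in the control, 1411 and 1403 TPM with Rbbp4 OE and 1454 and 1458 TPM with Rbbp7 OE, and fell by 0.17 with Rbbp4 OE (adjusted p = 0.0491). Cbx5, which encodes the heterochromatin protein HP1α, fell by 0.45 (adjusted p = 0.0245), from 46.8 and 51.8 TPM to 36.4 and 35.1 TPM. Setdb1 stood at 47.4 and 56.3 TPM in the control and 53.6 and 52.5 TPM with Rbbp4 OE, with overlapping libraries. The median of the 19 genes was -0.12, beside -0.08 for all genes tested.

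In Rbbp4 OE 3 of 31 Zbtb genes (9.68%) and 1 of 15 Zscan and Zkscan genes (6.67%) were called, against a background of 11.4%, with medians of -0.03 and -0.06. Among the 70 Zfp genes outside the excluded intervals that had a mean from 0.5 to under 2 TPM, limma called 0, with 2 at an unadjusted p under 0.05, and the median was -0.11. The member transcripts were less GC-rich than those of other protein-coding genes at 2 TPM or more (median 43.6% against 50.1%), with 36.1% in the chr4 cluster. With a correction for GC content and length, 12 members were higher and 7 lower in Rbbp4 OE, and 7 chr4 members were called in place of 4. Over all genes tested with it, 1475 of 14142 were called.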

How the data were processed

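Poly(A) RNA-seq of 6 mESC libraries was analysed. Per the paper's methods, the authors trimmed reads, aligned them to mm10 with STAR and estimated expression with RSEM, which divides reads that match several genes by a model. The deposited values are TPM per gene, without counts, so no count test was used. From them, log2(TPM + 1) was tested with limma 3.58.1 in R 4.3.3 (mean-variance trend, 1 fit of 3 groups over 6 libraries, 3 residual degrees of freedom, genes with a mean of at least 0.5 TPM). Each group has n = 2 libraries. The SEs come from the 1 fit of all 6 libraries, with a spread shared by the groups and moderated across genes. They are therefore the same in all 3 comparisons of a gene. Symbols and positions came from GENCODE M21 (GRCm38), which matched 55141 of 55401 gene IDs. Shared stretches were found with blastn 2.17.0 (at least 98% identity over 100 bases). The fit was tested on simulated data. The authors' own comparisons were not used, and a split by KRAB domain or finger number was not made. The members and gene lists were chosen with earlier results of these data known. Genes were named where called (the 6 largest in each direction, or the 3 largest differences where fewer passed), in the role lists, among the 5 most abundant, at the edge of the TPM minimum or as the largest difference of a cluster. Alternatives covered pseudocounts of 0.1 and 5, filters, scaling, a replicate block, a 2-group fit, a robust trend, protein-coding genes only, a GC and length correction, cluster gaps and each library left out.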

Additional observations from a re-analysis of the deposited data

Results flagged for a closer look

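Zfp566, in the chr7F cluster, lay on opposite sides of the control in the 2 lines, with the nearest library of each line close to a control library. It stood at 8.77 and 13.1 TPM in the control, 8.71 and 8.22 TPM with Rbbp4 OE and 13.4 and 14.7 TPM with Rbbp7 OE, so that both Rbbp4 OE libraries lay below and both Rbbp7 OE libraries above the control. The direct log2 difference of Rbbp4 OE from Rbbp7 OE was -0.67 ± 0.19 (SE), which did not pass the test (adjusted p = 0.163, limma).

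Zfp988, in the chr4 cluster, lay the other way round, with the nearest Rbbp7 OE library close to a control library. It stood at 34.6 and 40.1 TPM in the control, 47.9 and 43.6 TPM with Rbbp4 OE and 34.2 and 32.9 TPM with Rbbp7 OE, and its direct log2 difference of 0.43 ± 0.10 did not pass the test (adjusted p = 0.126).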

How the results depend on the processing

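In Rbbp7 OE against control and in the direct comparison, limma called 0 members in all 17 alternative settings, as it did under the study thresholds in all 3 comparisons. In Rbbp4 OE 6 members were called without a filter on low values and 0 in a 2-group fit, in place of 16. With the replicate block there were 10, 4 higher and 6 lower. Calls over all genes tested fell as well, from 1609 of 14156. They were 709 of 24675 without the filter, 158 of 14156 in the 2-group fit and 900 of 14156 with the block. The calls with a library left out are given above. In place of 4 chr4 members, 1 was called without a filter, 0 in the 2-group fit and 2 with the replicate block, against 8 under median-of-ratios scaling, 8 under quantile normalization and 7 with the GC and length correction, and 0 to 4 with a library left out. Libraries with the same replicate number did not deviate together (correlations of deviations -0.03, 0.03 and -0.03), which cannot settle whether the samples are paired. In the other 2 comparisons 0 members were called with the block, as without it. Their calls over all genes tested fell from 69 to 9 in Rbbp7 OE and from 43 to 9 in the direct comparison. The members' median in Rbbp4 OE was 0.021 under median-of-ratios scaling, 0.017 with the GC and length correction, and -0.16 to 0.033 with a library left out. The median of all genes tested was 0.011 under that scaling and -0.065 with that correction. In Rbbp7 OE the members' median ran from -0.087 to 0.11 with a library left out. In the direct comparison it was 0.0021 under median-of-ratios scaling and 0.0067 under quantile normalization, beside 0.0013 and -0.012 over all genes tested. The chr4 median stayed positive in every setting, at 0.43 under quantile normalization and 0.20 to 0.53 with a library left out in Rbbp4 OE, and 0.11 to 0.34 in Rbbp7 OE. Over the 16 called members, 151 values under the alternatives stayed past the threshold, 121 missed it and 0 changed sign, with Zfp428 past it in 14 of 17 settings, Zfp219 and Zfp985 in 13, Zfp317 in 12 and Zfp395 and Zfp706 in 5. The causes were not tested. Settings that leave out a library give a group of 1, assumed to vary like the others. Without counts, no depth limit can be set.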

Other observations

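A pair of members, chosen after their values were seen, had 1 library far from its replicate. Zfp691 had the largest positive log2 fold change of all members in Rbbp4 OE, 1.05 ± 0.56 (adjusted p = 0.272, limma), at 7.50 and 6.99 TPM in the control, 29.3 and 8.57 TPM with Rbbp4 OE and 6.61 and 13.7 TPM with Rbbp7 OE. Zfp715 of the chr7G cluster stood at 3.96 and 12.3 TPM in the control, 3.74 and 4.48 TPM with Rbbp4 OE and 6.61 and 5.15 TPM with Rbbp7 OE.

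The promoter windows of Zfp600 and Zfp979 were 98.3% identical over 294 aligned bases, while Zfp600 rose in Rbbp4 OE (log2 fold change 0.60) and Zfp979 stood at -0.09. The windows of Zfp534 and Zfp987 were 98.8% identical, with values of 0.49 and 0.57, of which only the first passed the test.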
